A study of Homo sapiens with 6 samples.

Results

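The mitochondrial genome is copied, transcribed and translated by proteins that are themselves encoded in the nucleus, and 43 genes for such proteins are described here in A549 cells, a human lung adenocarcinoma line, after knockdown of MRPL35. They were taken as a listed set covering genome maintenance, transcription, RNA processing, tRNA modification, ribosome assembly and translation, and each was matched to the array by its gene symbol. The set was chosen with earlier results of these data known, so its counts are a description and not independent support. Of the 43 genes, 42 were measured among 18244 genes in all. GFM2, a factor that helps to split the ribosome after translation, had no probe set of its own symbol alone and was not analysed here. The study hybridised total RNA from 6 A549 samples to 6 Affymetrix arrays. The tested samples carried a lentiviral short hairpin against MRPL35 (KD, n = 3), and the control samples carried a lentiviral control hairpin (NC, n = 3). Both groups were thus infected with a lentivirus and grown in the same medium. Separate cultures are not stated for the 3 samples of a group, so the p-values cover the spread between these arrays only, and that spread may be technical. The source names of NC replicates 2 and 3 give other line numbers, while their cell line field reads A549 as for the rest.

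MRPL35 belongs to the mitochondrial ribosome's large subunit. This ribosome is the machine that makes the few membrane subunits of oxidative phosphorylation encoded by mitochondrial DNA. The genome is replicated by a small dedicated replisome and read into long transcripts from both strands. These transcripts are cut at the tRNAs, polyadenylated, modified and bound by stabilising proteins before the ribosome, built with the help of GTPases, helicases and rRNA methyltransferases, translates them. Inherited defects in many of these factors cause mitochondrial disease.

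The hairpin's target was lower in every KD sample. MRPL35 read 6.49, 6.44 and 6.56 in KD samples, against 8.16, 8.05 and 8.36 in NC samples, in log2 units of probe-set value. The groups did not overlap, and the KD level was 3.23-fold lower (log2 change -1.69 ± 0.096 SE, limma adjusted p = 3.77e-06), or 30.9% of the NC level. Every change below is KD minus NC on the same log2 scale, so negative values are lower in KD. A gene is said to have risen or fallen where its p-value from limma, adjusted by the Benjamini-Hochberg method over all 18244 genes, was under 0.05.

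Across the whole table the 6 arrays had medians between 5.49 and 5.55. Arrays correlated at 0.997 to 0.998 within KD, at 0.994 to 0.998 within NC and at 0.976 to 0.980 between the groups. NC replicate 2 stood somewhat apart from the other NC arrays, with a median absolute deviation from its group mean of 0.111 against 0.074 and 0.081 for NC replicates 1 and 3. It was the lowest NC array for 27 of the 42 factors. Without it 22 factors fell and 2 rose, as against 20 and 3 with all arrays. The difference between 3′ and 5′ control probe sets, a sign of RNA quality, was 0.63 ± 0.044 in KD and 0.58 ± 0.082 in NC for ACTB, and 0.086 ± 0.035 in KD and 0.012 ± 0.050 in NC for GAPDH (SD, n = 3 each). Of 8 epithelial or A549 markers 6 rose and 0 fell (median change 0.40), and their mean levels ran from 5.98 for EPCAM to 13.65. Among 10 measured markers of leukocytes, endothelium, fibroblasts and red cells, 0 passed the limma test and their levels lay between 2.52 and 6.69. Beside these marker counts, 15.9% of all genes fell and 17.6% rose, and of genes above the median level 25.4% fell and 27.9% rose. The part of the RNA quality and marker differences in the results below was not tested, and values without single arrays stand beside the results that they change.

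Lower values prevailed among the mitochondrial factors. In KD samples 20 of 42 factors fell and 3 rose, while 19 did not pass the test. The falls made up 47.6% of the factors, beside 15.9% of all genes that fell, and the rises 7.14%, beside 17.6% of all genes that rose. The median change of the 42 factors was -0.24, and that of all other genes was -0.017. Because the factors were chosen with earlier results of these data known, these contrasts with all genes are descriptive only. Most factors are well expressed, with 40 of 42 above the median level of all genes. Of those 40, 18 fell (45.0%) and 3 rose (7.5%), against 25.4% and 27.9% of all genes above the median level. Sizes were moderate: 7 of 42 fell by at least 0.5 on the log2 scale, which 9.39% of all genes did, and 1 rose by as much. The arrays measured bulk RNA, so fewer cells expressing a gene and less RNA per cell cannot be told apart.

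**Figure D1:**
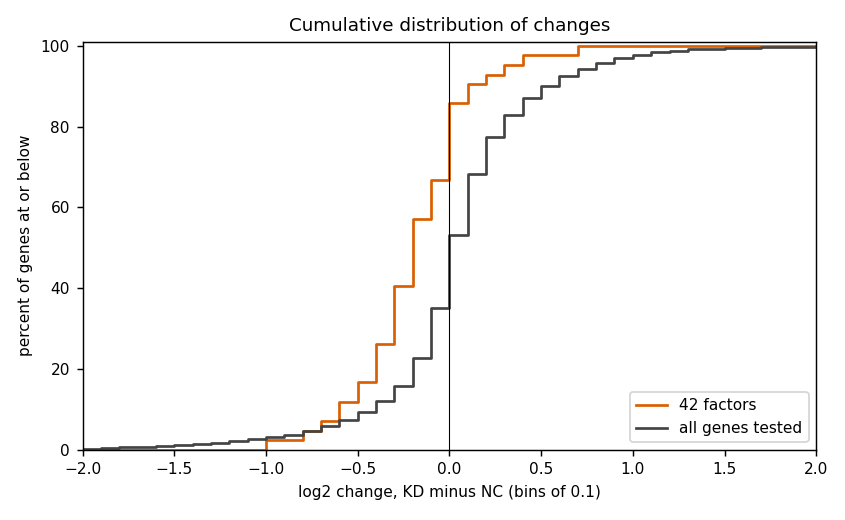
Cumulative percent of genes (vertical axis) at or below each log2 change, KD minus NC (horizontal axis, bins of 0.1), for the 42 factors and for all 18244 genes tested. The curve of the 42 factors lies to the left, with a median of -0.24 against -0.018 for all genes tested.

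Sign and separation of the arrays gave a similar count. The change was negative for 36 of 42 factors and positive for 6, beside 9694 negative and 8550 positive among all 18244 genes. All 3 KD values lay below all 3 NC values for 27 factors, a pattern shown by 21.5% of all genes, and above them for 3 factors, a pattern shown by 23.2% of all genes. Of the 19 factors that did not pass the test, 7 still had KD values wholly below NC values, and 16 had a negative change, with the largest at -0.26. Standard errors ran from 0.074 to 0.14, so a change of that size lay near the limit of what 3 arrays a group could separate.

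**Figure D2:**
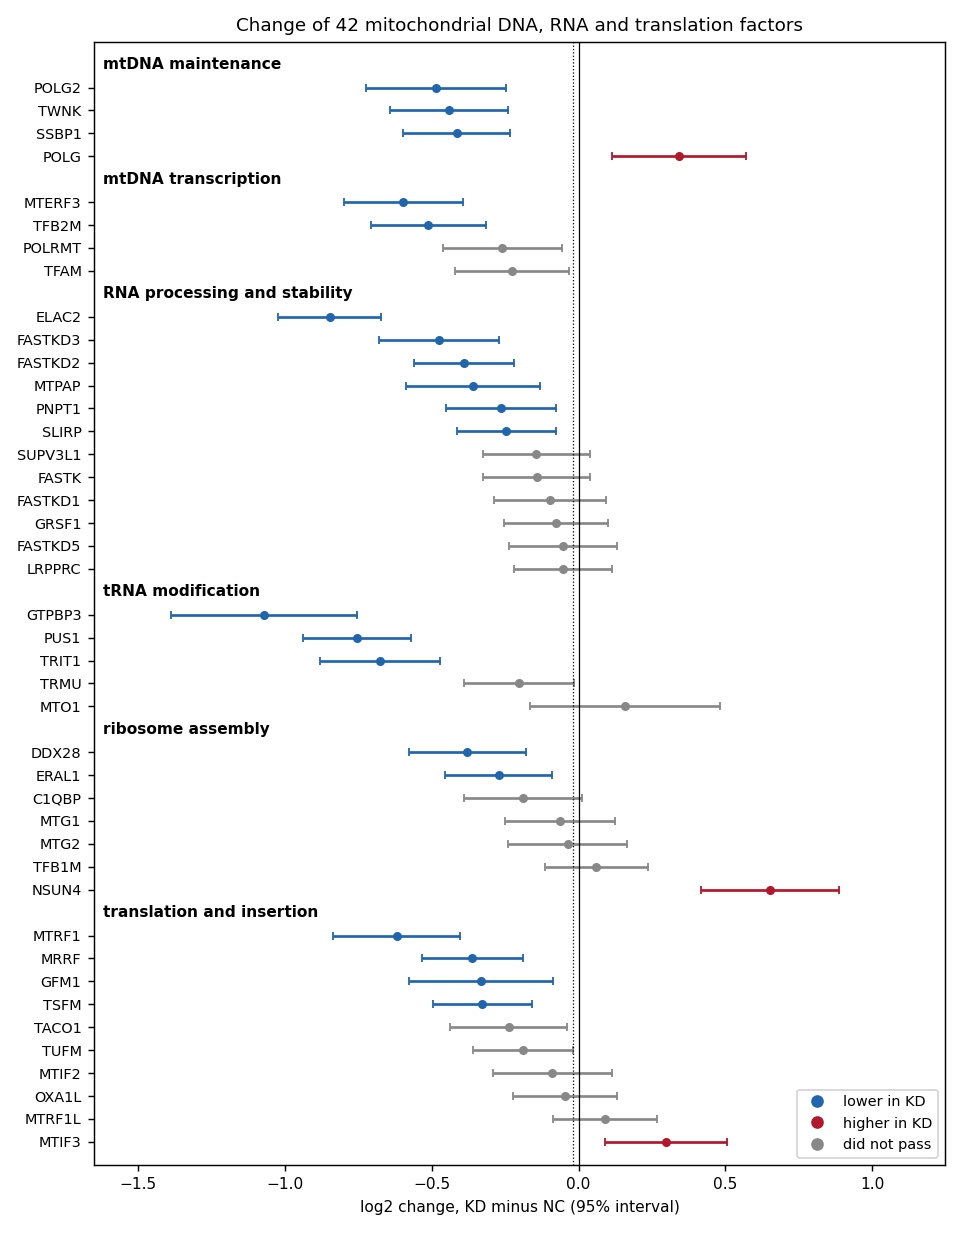
Log2 change, KD minus NC, of each of 42 factors by role, with its 95% interval from limma. Intervals are for each gene alone, without adjustment for the number of genes, and colours mark the adjusted test. GTPBP3 and ELAC2 lie farthest to the left, at -1.07 and -0.85, and NSUN4 farthest to the right at 0.65. The dotted line is the median of all genes.

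By role, 75% of genes fell in maintenance, 50% in transcription and 50% in RNA processing. In tRNA modification 60% fell, in assembly 28.6% and in translation 40%. Of all genes 15.9% fell, and 25.4% of those above the median level. Rises made up 25% in maintenance, 14.3% in assembly, 10% in translation and 0% elsewhere, beside 17.6% of all genes. All 4 genes of mitochondrial DNA maintenance passed the test, 3 of them lower and 1 higher in KD, with a median change of -0.43. SSBP1, the protein that coats single-stranded mitochondrial DNA at the fork, read 10.69, 10.70 and 10.71 in KD samples, against 11.16, 11.01 and 11.17 in NC samples. The KD values were nearly equal and lay below every NC value. SSBP1 fell by 0.42 ± 0.079 (SE, limma adjusted p = 0.0032), which is 1.33-fold. TWNK, the replicative helicase, fell 1.36-fold (-0.44 ± 0.088, adjusted p = 0.00404). POLG2, the accessory subunit of the DNA polymerase that raises its processivity, fell 1.40-fold (-0.49 ± 0.105, adjusted p = 0.00612). The catalytic subunit POLG moved the other way and rose 1.27-fold (0.34 ± 0.101, adjusted p = 0.0281). The 2 subunits of the same polymerase thus had changes of opposite sign. The rise of POLG lost its call when any 1 KD array was left out, with adjusted p-values of 0.0854, 0.0808 and 0.0716 without KD replicates 1, 2 and 3.

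Mitochondrial transcription showed 2 falls among 4 genes, and all 4 had KD values wholly below NC values at their brightest probe sets (median change -0.39). TFB2M, which melts the promoter and starts transcription with the polymerase, read 9.10, 8.95 and 9.00 in KD samples, against 9.56, 9.42 and 9.61 in NC samples. It fell by 0.51 ± 0.086 (SE, limma adjusted p = 0.00156). MTERF3, a member of the MTERF family that in mice represses mitochondrial transcription, read 8.16, 8.12 and 8.10 in KD samples, against 8.88, 8.66 and 8.64 in NC samples. It fell by 0.60 ± 0.089 (adjusted p = 0.000785), and KD values again stayed below all NC values. TFAM, which packages the genome and activates its promoters, changed by -0.23 ± 0.086 and did not pass (adjusted p = 0.0759). It passed without NC replicate 2, at -0.29 and adjusted p = 0.019. The RNA polymerase POLRMT changed by -0.26 ± 0.089 and did not pass either (adjusted p = 0.0521), though it did without NC replicate 1, at -0.32 and adjusted p = 0.0316. The other probe sets of POLRMT, at mean levels of 6.02 and 5.80, changed by -0.03 and 0.04 with overlapping groups. Leaving out probe sets that may bind several transcripts removed TFB2M, which has no other, and left 1 fall in the group with a median of -0.23.

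Transcription factors of nuclear promoters such as NRF1 and the ETS protein GABP are known regulators of many such genes, so the letters of the promoters are given for a few of them. RefSeq promoter windows on GRCh38.p14, from 250 bases before to 50 after the start, were at hand for 37 factors, of which 36 were measured. They were searched on both strands for NRF1 (GCGCA followed by its reverse complement TGCGC), ETS (CCGGAAG), E-box (CACGTG), E2F (TTTCCCGC or TTTGGCGC) and YY1 (AAGATGGC), none of which was allowed to vary. The ETS letters stood in a window of 16 of 36 factors (44.4%), beside 17.1% of 14190 measured protein-coding genes. They stood in 6 of 16 factors that fell (37.5%), beside 26.0% of all such genes that fell. Of the factors that rose 0 of 3 held them, beside 16.7% of all such genes that rose. Among factors that did not pass, 10 of 17 held them (58.8%). The share among all such genes that did not pass was not computed. The NRF1 letters were found in 2 of 36 factors (5.56%, beside 2.07% of all). E2F letters were in 2 of 36 (5.56%, beside 3.82%), YY1 letters in 3 of 36 (8.33%, beside 4.89%) and the E-box in 0 of 36 (beside 11.0%). Each gene was counted once, for a hit in any of its windows. Genes with several windows, such as SSBP1 with 3, had more room for a hit. A match is a description of the letters and not a bound site.

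The windows shown cover the gene with the largest fall that held a hit, ELAC2, and the paired methyltransferase relatives TFB2M and TFB1M. POLRMT is added as the other window with NRF1 letters, chosen after its values were seen. Capitals mark the ETS and NRF1 hits, all 4 genes lie on the minus strand, and each sequence runs 5′ to 3′ along the gene and ends at the base before the start. TFB2M, whose transcript fell, shows no exact match in the 150 bases given. TFB1M and POLRMT, which did not pass the test, each show exact NRF1 and ETS letters. The TFB2M sequence does hold tcgcatgcgc and gcggaag, which differ from the NRF1 and ETS letters by a single letter. Such near matches were not counted in any gene, so the contrast is one of exact letters only. In ELAC2 the first ETS run is a pair of overlapping hits on opposite strands.
ELAC2, chr17:13018028-13018277: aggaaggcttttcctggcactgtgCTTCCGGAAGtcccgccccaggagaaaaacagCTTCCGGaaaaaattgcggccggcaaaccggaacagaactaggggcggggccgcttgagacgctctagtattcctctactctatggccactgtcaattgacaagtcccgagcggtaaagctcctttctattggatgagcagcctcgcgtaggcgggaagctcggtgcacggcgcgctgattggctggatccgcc
TFB2M, chr1:246566262-246566411: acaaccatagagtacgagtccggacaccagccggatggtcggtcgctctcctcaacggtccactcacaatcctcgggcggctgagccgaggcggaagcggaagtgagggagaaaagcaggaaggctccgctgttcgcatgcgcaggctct
TFB1M, chr6:155314485-155314634: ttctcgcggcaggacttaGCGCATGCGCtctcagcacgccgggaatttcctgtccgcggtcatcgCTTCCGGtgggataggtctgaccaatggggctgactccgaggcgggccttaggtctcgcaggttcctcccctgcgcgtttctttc
POLRMT, chr19:633538-633687: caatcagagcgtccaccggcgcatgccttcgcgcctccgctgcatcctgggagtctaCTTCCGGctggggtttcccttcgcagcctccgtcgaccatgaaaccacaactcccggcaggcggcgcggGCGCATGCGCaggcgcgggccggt

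RNA processing and stability was the largest group, with 6 falls and 0 rises among 12 genes and a negative change in all 12 (median -0.19). Of all 18244 genes, 9694 had a negative change. ELAC2, the endonuclease that trims the 3′ end of tRNA precursors in mitochondria and nucleus, stood out in size. It read 9.92, 10.03 and 9.95 in KD samples, against 10.84, 10.75 and 10.85 in NC samples, with no overlap between groups. ELAC2 fell by 0.85 ± 0.077 (SE, limma adjusted p = 4.69e-05), to 55.6% of the NC level. All 3 of its other probe sets fell too, by 0.67, 0.57 and 0.64.

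The 5 FASTK family genes among the factors, RNA-binding proteins that act on single mitochondrial transcripts, were split. FASTKD2, which acts in ribosome assembly and on particular mRNAs, fell by 0.39 ± 0.075 (limma adjusted p = 0.00342), and FASTKD3 fell by 0.48 ± 0.090 (adjusted p = 0.003). FASTK, FASTKD1 and FASTKD5 changed by -0.14, -0.10 and -0.05 and did not pass. TBRG4, a further family member counted below with the other genes, fell by 0.76 ± 0.088 (adjusted p = 0.000179). The differences between family members were not tested. Of the paired stabilisers of mRNA, SLIRP fell by 0.25 ± 0.075 (adjusted p = 0.0321), while its partner LRPPRC changed by -0.05 and did not pass (adjusted p = 0.669). LRPPRC did pass with its probe sets averaged, at -0.32 (adjusted p = 0.00746), and without those that may bind several transcripts, at -0.92 (adjusted p = 3.82e-05). The call on SLIRP was lost without KD replicate 1, 2 or 3 or NC replicate 1 or 3, with adjusted p-values of 0.118, 0.093, 0.0775, 0.091 and 0.0681.

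Of 3 genes of polyadenylation and decay 2 fell. MTPAP, the mitochondrial poly(A) polymerase, fell by 0.36 ± 0.101 (limma adjusted p = 0.0222), and PNPT1, the exonuclease of the RNA degrading complex, fell by 0.26 ± 0.083 (adjusted p = 0.036). SUPV3L1, the helicase of that complex, changed by -0.14 and did not pass, though its groups did not overlap. GRSF1, a protein of mitochondrial RNA granules, changed by -0.08 at its brightest probe set and did not pass, but passed with its probe sets averaged, at -0.44 (adjusted p = 0.00159). MTPAP lost its call without KD replicates 2 and 3 and NC replicates 1 and 3 (adjusted p = 0.0896, 0.0509, 0.078 and 0.0671). PNPT1 lost it without KD replicates 1, 2 and 3 and NC replicates 1 and 3 (adjusted p = 0.0501, 0.126, 0.132, 0.115 and 0.0795). With probe sets averaged neither passed, at -0.25 for MTPAP and -0.21 for PNPT1 (adjusted p = 0.0779 and 0.147). The group then counted as few as 3 falls, which happened without KD replicate 2 or 3 or NC replicate 1 or 3.

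Of the 5 tRNA modifying enzymes 3 fell and 0 rose. The median was -0.68 by the brightest probe sets and -0.32 by the mean of each gene's probe sets. PUS1, which turns uridine into pseudouridine in mitochondrial and cytosolic tRNA, read 8.38, 8.25 and 8.21 in KD samples, against 8.99, 9.09 and 9.03 in NC samples. It fell by 0.76 ± 0.081 (limma adjusted p = 0.000113), and its other 2 probe sets fell by 0.65 and 0.48. TRIT1, which adds an isopentenyl group beside the anticodon, read 7.21, 7.01 and 7.05 in KD samples, against 7.79, 7.66 and 7.85 in NC samples. It fell by 0.68 ± 0.090 (adjusted p = 0.00041). In both genes the highest KD value lay well below the lowest NC value.

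GTPBP3 and MTO1 work as partners that place a taurine-derived group on the wobble uridine of mitochondrial tRNA, and of the pair GTPBP3 alone passed the test. The difference between them was not tested. GTPBP3 read 7.00, 6.72 and 6.90 in KD samples, against 8.02, 7.64 and 8.17 in NC samples, a change of -1.07 ± 0.139 (limma adjusted p = 0.000356) and the largest of the 42 factors. MTO1 read 7.09, 7.20 and 6.87 in KD samples, against 7.00, 6.60 and 7.10 in NC samples. Its groups overlapped, and it did not pass (0.16 ± 0.142, 95% interval -0.17 to 0.48, adjusted p = 0.479). The fall of GTPBP3 rests on 1 probe set of a type that may bind several transcripts. Its 4 other, dimmer probe sets, at mean levels of 4.09 to 5.43, changed by 0.01, -0.16, -0.28 and -0.07, and none passed. With such probe sets left out GTPBP3 changed by 0.0073 (adjusted p = 0.97), and the median of the group was -0.15. TRMU, which adds sulphur to the same wobble base, changed by -0.20 ± 0.082 and did not pass (adjusted p = 0.0985), with KD values wholly below NC values. Of its 5 other probe sets 1 fell, by 0.27 (limma over all probe sets, adjusted p = 0.0283).

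**Figure D3:**
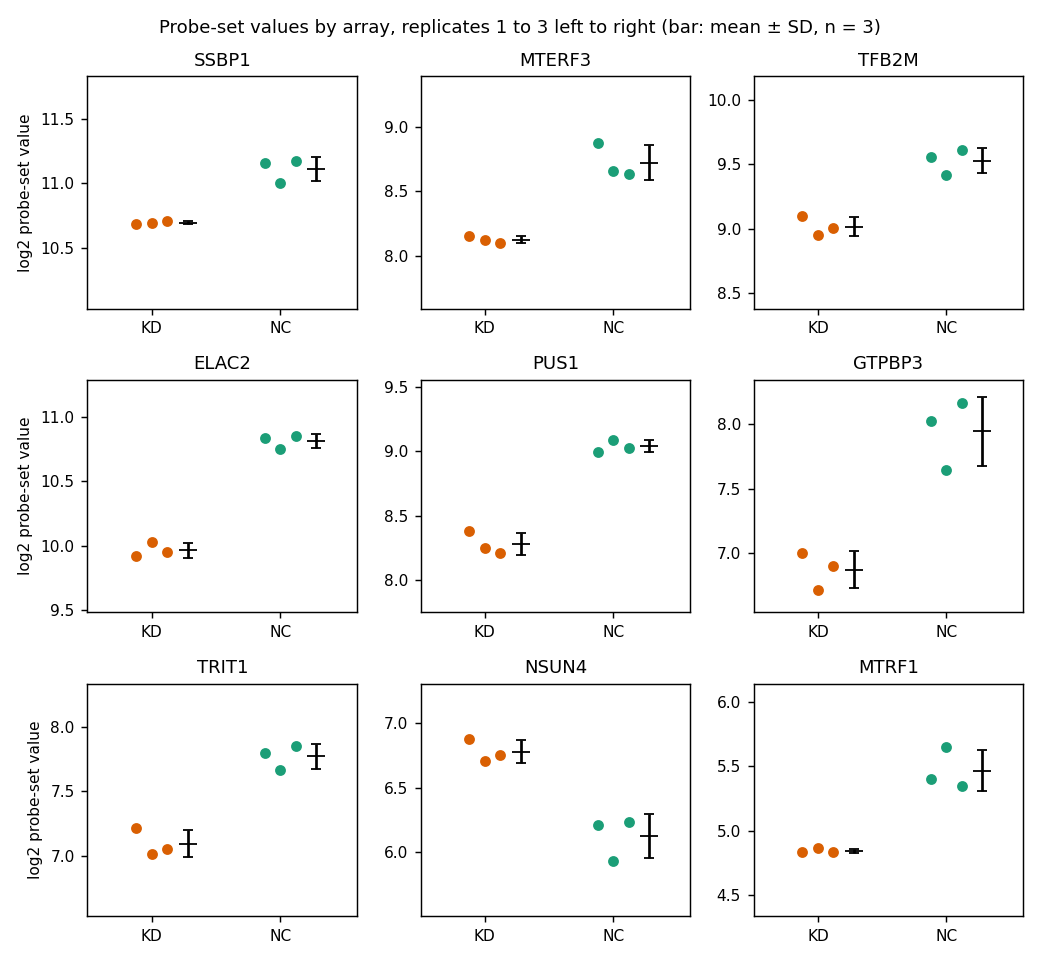
Log2 probe-set value in each array for 9 factors (8 that passed the test with a change of at least 0.5 in size, and SSBP1 for genome maintenance). KD points stand left of NC points, the bars are the mean ± SD (n = 3), and every panel spans the same height. The groups do not overlap in any panel, and only NSUN4 has its KD points above its NC points.

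Ribosome assembly factors had the group median nearest 0, with 2 falls, 1 rise and 4 genes that did not pass (median -0.064). That median was -0.12 without NC replicate 1 and -0.033 without NC replicate 2. NSUN4, a methyltransferase of the small-subunit rRNA that also joins the subunits with MTERF4, read 6.88, 6.70 and 6.75 in KD samples, against 6.21, 5.93 and 6.23 in NC samples. It rose by 0.65 ± 0.103 (limma adjusted p = 0.0011), 1.57-fold, with no overlap between groups. This was the only rise of at least 0.5 among the 42 factors, and it stood on 1 of 3 probe sets. The other 2 changed by -0.27 (adjusted p = 0.0738) and -0.11, neither passing, and the mean of the 3 changed by 0.093 (adjusted p = 0.456). The partner MTERF4 changed by -0.02 and did not pass (adjusted p = 0.906).

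The remaining assembly factors had small changes. DDX28, an RNA helicase of large-subunit assembly, fell by 0.38 ± 0.088 (limma adjusted p = 0.00874), although its mean over probe sets did not pass (-0.11, adjusted p = 0.284). Its other probe sets, at mean levels of 7.34 and 6.57, changed by 0.18 and -0.12, and neither passed. At the brighter of these, all KD values lay above all NC values. ERAL1, a GTPase that binds the small-subunit rRNA, fell by 0.27 ± 0.080 (adjusted p = 0.0272). Without KD replicate 1, 2 or 3 or NC replicate 3 the call on ERAL1 was lost (adjusted p = 0.0871, 0.0954, 0.0688 and 0.0772), which left DDX28 as the group's only fall. The GTPases MTG1 and MTG2, which act on the large subunit, changed by -0.06 and -0.04. C1QBP, an acidic matrix protein, changed by -0.19 and did not pass (adjusted p = 0.147), but passed without NC replicate 2 (-0.25, adjusted p = 0.0365). TFB1M, the relative of TFB2M that methylates the small-subunit rRNA, read 7.01, 6.93 and 6.99 in KD samples, against 6.89, 6.99 and 6.86 in NC samples. Its values overlapped and its change was 0.06 ± 0.077 (95% interval -0.12 to 0.24), beside -0.51 for TFB2M.

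Translation and membrane insertion had 4 falls and 1 rise among 10 measured genes (median -0.21). Initiation was divided. MTIF3 rose by 0.30 ± 0.092 (limma adjusted p = 0.0332), and MTIF2 changed by -0.09 and did not pass. The other probe set of MTIF3 changed by -0.31 (adjusted p = 0.124), so the rise holds for the brighter probe set alone. It was also lost without KD replicate 2 or 3 or without NC replicate 2 (adjusted p = 0.113, 0.12 and 0.0542), in which case the group had 0 rises.

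Of the 3 elongation factors measured, 2 fell. TSFM, which recharges the factor that delivers tRNA, fell by 0.33 ± 0.075 (limma adjusted p = 0.0081), and GFM1, the translocase, fell by 0.33 ± 0.108 (adjusted p = 0.0428). TUFM, the delivering factor itself and among the brightest of the set at a mean level of 11.00, changed by -0.19 ± 0.075 and did not pass (adjusted p = 0.0875), with KD values wholly below NC values. GFM1 lost its call without KD replicates 1, 2 and 3 and NC replicates 1 and 3 (adjusted p = 0.068, 0.104, 0.15, 0.142 and 0.126).

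Termination and recycling followed the same direction in part. MTRF1, a release factor, read 4.84, 4.87 and 4.84 in KD samples, against 5.40, 5.65 and 5.35 in NC samples. It fell by 0.62 ± 0.095 (limma adjusted p = 0.000906), but it was the dimmest of the 42 factors, and its 3 other probe sets changed by -0.24, -0.44 and -0.23 without passing. Its relative MTRF1L changed by 0.09 and did not pass (adjusted p = 0.458). Of the 3 other probe sets of MTRF1L, 1 rose by 0.36 (limma over all probe sets, adjusted p = 0.0202). MRRF, the recycling factor, fell by 0.36 ± 0.076 (adjusted p = 0.00515). TACO1, an activator of translation of a cytochrome oxidase subunit, changed by -0.24 and did not pass (adjusted p = 0.0699), with groups that did not overlap. OXA1L, which inserts the new proteins into the inner membrane, changed by -0.05.

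Agreement between probe sets of a gene gives a second look at these calls within the same arrays. The brightest probe set stood for each gene, and 59 others belonged to 26 of the 42 factors. Of the 20 factors that fell, 14 had others, 28 in all, of which 15 fell, 0 rose and 13 did not pass. Over all probe sets on the array 14.1% fell and 16.5% rose. In 11 of those 14 factors every other probe set had the sign of the brightest. FASTKD2 fell by more at its 2 others (by 1.05 and 0.53), and TSFM fell by 0.75 at its other. The 3 factors that rose had 3 others in all, of which 0 passed the limma test in either direction. Of the 28 other probe sets of the 19 factors that did not pass, 3 fell and 1 rose. A dimmer probe set of LRPPRC, at a mean level of 6.81, fell by 0.92 (limma adjusted p = 5.4e-05). The brightest and the others of LRPPRC changed by -0.05, -0.02 and -0.30, and none of these passed. For GRSF1 a dimmer probe set, at a mean level of 5.87, fell by 1.48 (adjusted p = 1.8e-05), whereas the brightest changed by -0.08.

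**Figure D4:**
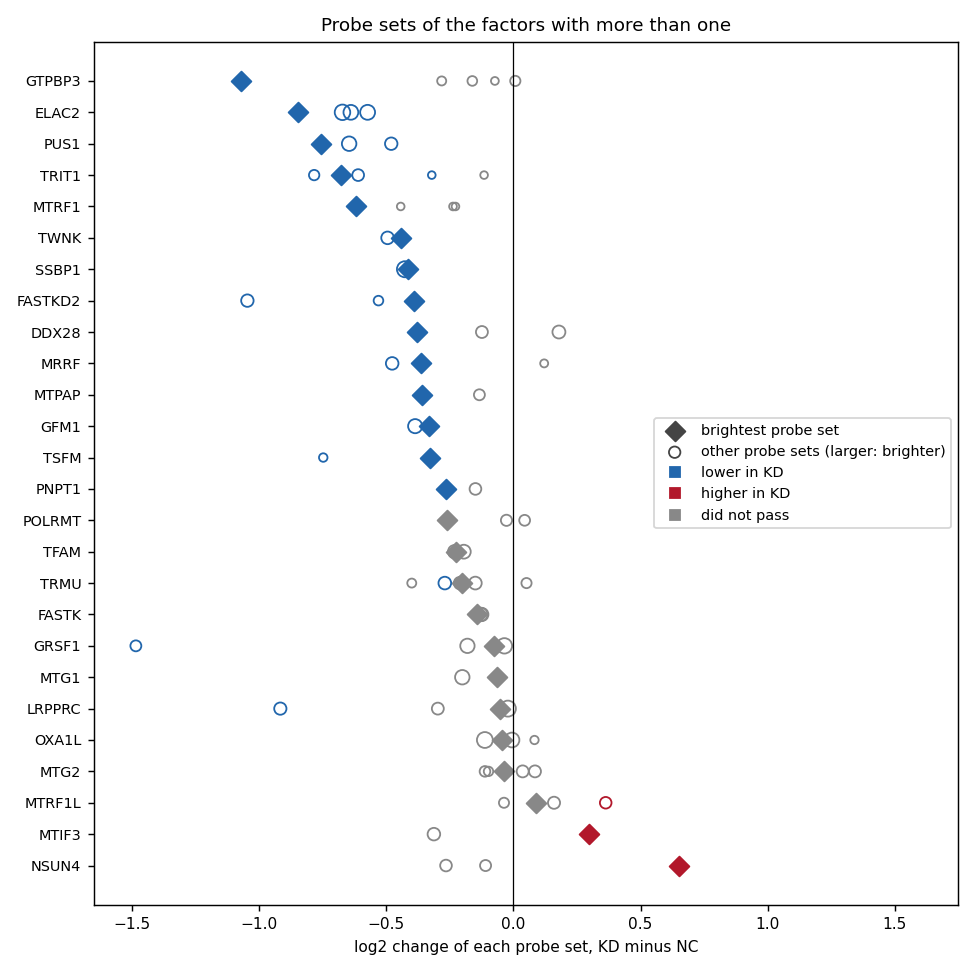
Log2 change, KD minus NC, of every probe set of the 26 factors with more than 1. Diamonds are the brightest probe set, which stands for the gene, open circles the others, and colour gives the limma test over all probe sets. Circles of ELAC2 and PUS1 lie near their diamonds, while those of GTPBP3, NSUN4 and MTIF3 lie apart from theirs.

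Other genes were taken from sets listed for the same pathways and counted in the same way. These lists too were chosen with earlier results of these data known. Together 69 other measured genes listed under mitochondrial genome expression gave 29 falls, 9 rises and 31 that did not pass. Their median change was -0.12. Beside this count and those of the single lists, 15.9% of all genes fell and 17.6% rose. Of genes above the median level 25.4% fell and 27.9% rose. The lists were counted whole, and some genes on them have other roles, such as TMEM70 in ATP synthase assembly. The counts therefore describe the lists and not genome expression factors alone. Of 16 other maintenance and transcription genes 9 fell and 3 rose (56.25% and 18.75%, median -0.36). DNA2, a nuclease and helicase, fell by 1.29 ± 0.113. RRM2B, a subunit of the ribonucleotide reductase of resting cells, rose by 1.02 ± 0.083, and the topoisomerase TOP1MT rose by 0.94 ± 0.095 (limma adjusted p = 3.91e-05, 2.66e-05 and 8.68e-05). Of 24 other RNA processing and tRNA modification genes 11 fell and 2 rose (45.8% and 8.33%, median -0.21). OSGEPL1, which makes a modified adenosine beside the anticodon, fell by 1.19 ± 0.164. PTCD2 fell by 0.90 ± 0.081, and the pseudouridine synthase RPUSD4 rose by 0.84 ± 0.106. RNase P, which cuts tRNA 5′ ends as ELAC2 does 3′ ends, was looked up after the values were seen. Its nuclease PRORP fell by 0.60 ± 0.116, its subunit HSD17B10 rose by 0.41 ± 0.078, and TRMT10C changed by -0.27 and did not pass.

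Of 18 other genes listed under assembly 6 fell and 1 rose (33.3% and 5.56%, median -0.081). The rise was that of LYRM2, by 0.34 ± 0.091. It was lost without KD replicate 1 or 3 and without NC replicate 3, with 0 rises each time. Among the falls were the rRNA methyltransferases MRM1 and MRM3, by 0.58 ± 0.113 and 0.53 ± 0.084, and TMEM70, an assembly factor of ATP synthase, by 0.54 ± 0.086. Of 13 other genes listed under translation 3 fell and 3 rose (23.1% each, median -0.035). Of all genes 15.9% fell and 17.6% rose, and of those above the median level 25.4% and 27.9%. QRSL1, a subunit of the enzyme that makes glutaminyl-tRNA, fell by 0.95 ± 0.092. COX14 and COA3, which act in cytochrome oxidase synthesis, rose by 0.58 ± 0.089 and 0.52 ± 0.081. The remaining rise on the translation list was that of LETM1, by 0.32 ± 0.090. Of 16 mitochondrial aminoacyl-tRNA synthetases, the enzymes that charge tRNA, 7 fell and 1 rose (43.75% and 6.25%, median -0.21). The rises numbered 2 without NC replicate 3, and 3 with quantile normalisation, with array weights or without dim genes. MARS2 and EARS2 fell by 1.17 ± 0.194 and 0.99 ± 0.089, and CARS2 rose by 0.98 ± 0.088. No transcript of the mitochondrial genome itself was measured under the symbol rule, so its RNA was not analysed here.

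Among 10 nuclear regulators of mitochondrial biogenesis 7 fell and 0 rose (70% and 0%, beside 15.9% and 17.6% of all genes, median -0.62). MYC averaged 8.80 in KD and 9.95 in NC samples, a fall of 1.15 ± 0.093 (limma adjusted p = 2.43e-05). The coactivators PPRC1 and PPARGC1A fell by 1.11 ± 0.086 and 1.04 ± 0.092. GABPA, the DNA-binding subunit of GABP, fell by 0.59 ± 0.138 (adjusted p = 0.0094), and NRF1 changed by -0.09 and did not pass (adjusted p = 0.54). Whether these changes bear on those of the 42 factors was not tested.

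**Figure D5:**
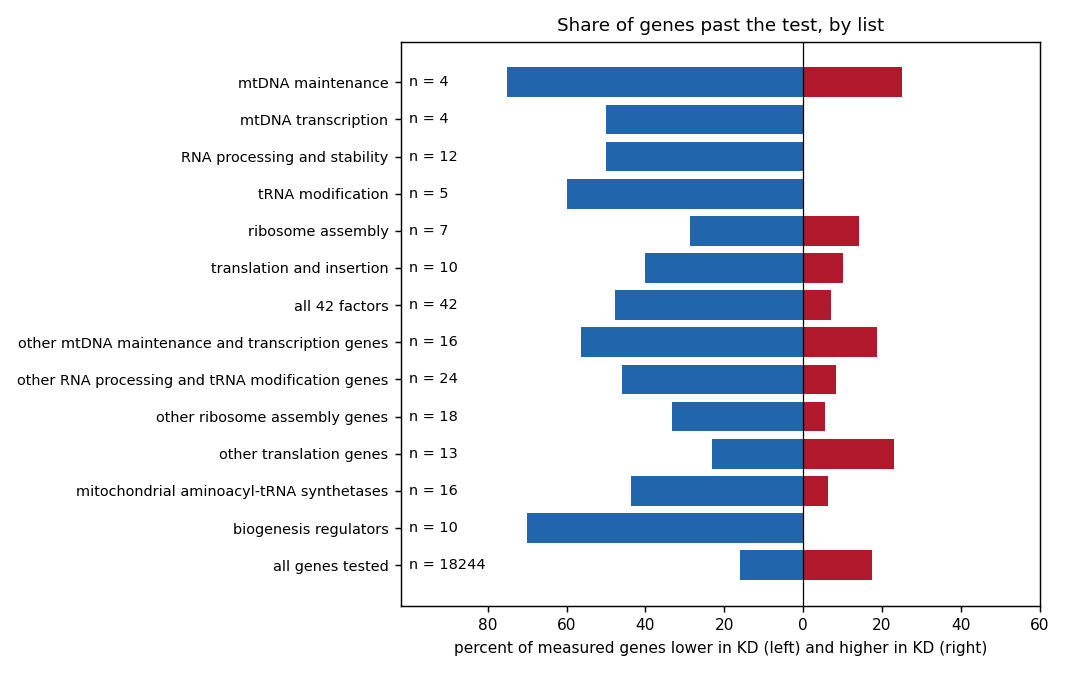
Percent of measured genes of each list that fell (left of 0) or rose (right of 0) in KD by the limma test, with the number measured. The 42 factors show 47.6% lower and 7.14% higher, and all genes tested 15.9% and 17.6%.

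A few factors share a short promoter region with a neighbour read from the opposite strand. RefSeq starts on opposite strands within 1000 bases were found for 6 factors. TFB2M, which fell, starts 195 bases from CNST, which rose by 0.64 ± 0.087 (limma adjusted p = 0.000454). DDX28 starts 52 bases from DUS2, a tRNA dihydrouridine synthase, which fell by 0.54 ± 0.077 (adjusted p = 0.000598). SLIRP starts 48 bases from ALKBH1, which fell by 0.59 ± 0.085 (adjusted p = 0.000605), and FASTKD2 starts 278 bases from MDH1B, which fell by 0.45 ± 0.141 (adjusted p = 0.0373). MRRF fell, while RBM18, 42 bases away, changed by -0.01 and did not pass (adjusted p = 0.945). TUFM and SH2B1, 258 bases apart, both did not pass.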

How the data were processed

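The deposited series table holds log2 values for 49395 Affymetrix probe sets in 6 arrays. The scale was read from the values, which reach 14.3, and the authors' probe summary and normalisation are not given in the sources used here. Per the labels' protocols, Trizol-extracted RNA was made into biotinylated cRNA. Gene symbols came from the platform annotation: 45278 probe sets had 1 symbol, 1333 several and 2682 none, and 102 controls were left out. The probe set with the highest mean over the 6 arrays stood for each of 18244 genes. KD was compared with NC by lmFit and eBayes of limma 3.58.1 under R 4.3.3 (group as the only term, two-sided), with p-values adjusted by Benjamini-Hochberg over all genes at 0.05. No pairing of arrays entered the fit. On simulated data over 18244 genes, the fit recovered 6 of 50 genes changed by 0.3 on the log2 scale. It recovered 37 of 50 changed by 0.5 and 50 of 50 changed by 1, with 6 false calls among 18044 unchanged genes. The simulation changed far fewer genes than the 2903 lower and 3207 higher called in the data, and its noise was independent between genes. Its adjusted cut-off was therefore stricter, and these recoveries do not carry over to the data. Array values are given for factors that passed with a change of at least 0.5, or for the lowest p in a role with none, and up to 3 genes are named per other list by size of change. Exceptions, chosen after their values were seen, are the array values of MTO1 and TFB1M. So is the naming of GABPA, NRF1, MTERF4, TBRG4, LYRM2, LETM1 and the RNase P subunits. The members and lists were chosen with earlier results of these data known. Alternatives covered normalisation, variance model, array weights, replicate block, probe-set choice, dim genes and each array left out. The number of arrays limits the precision, and no depth applies.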

Additional observations from a re-analysis of the deposited data

How the results depend on the processing

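Of 336 summary values recomputed under 14 alternatives, 302 were labelled the same and 34 moved. A count was the same within a set factor of the main count, and a median within the SD between arrays of the main median. For MRPL35 the label asks for the same sign and call. No median and no MRPL35 change was labelled reversed, a label that counts could not receive. Of the 23 factors called, 12 kept the call wherever they could be tested (ELAC2, FASTKD2, FASTKD3, MRRF, MTERF3, POLG2, PUS1, SSBP1, TFB2M, TRIT1, TSFM and TWNK). Leaving out 1 array at a time gave 15 to 22 factors lower and 1 to 3 higher. By role the ranges were 0 to 1 higher in maintenance, 2 to 3 lower in transcription (median -0.43 to -0.35), 3 to 6 lower in RNA processing, 1 to 3 lower in assembly and 0 to 1 higher in translation. With probe sets averaged per gene 1 factor was higher, assembly had 1 lower and 0 higher, translation had 0 higher, and the medians were -0.25 for RNA processing and -0.32 for tRNA modification. Without probe sets of x or s suffix, transcription had 1 lower (median -0.23), translation had 0 higher, and the medians were -0.26 for RNA processing and -0.15 for tRNA modification. Transcription had 4 lower with trend and robust fitting and 4 without dim genes, and translation had 0 higher with median centring. Signs turned for GTPBP3 (0.0073 without suffixed probe sets) and for MTIF3 (-0.0069 with the mean of probe sets and -0.31 without suffixed ones). With probe sets averaged the calls on NSUN4, DDX28, MTPAP and PNPT1 were lost, LRPPRC and GRSF1 fell by 0.32 and 0.44, and the other assembly genes had 0 rises. LRPPRC fell by 0.92 and the other translation genes had 5 rises without suffixed probe sets. The call on MTRF1 was lost without suffixed probe sets. Apart from what the settings change by construction, the cause was not tested. Same-numbered arrays deviated together at 0.254, 0.265 and -0.096, and not every array correlated best with its own number, so the numbers were not taken as pairs. With the replicate block 19 factors were lower and 3 higher, SLIRP losing its call (limma adjusted p = 0.0534), and of all genes 3014 were lower and 3262 higher. The pseudocount alternative did not apply to a log2 table.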
